A study of Mus musculus with 12 samples.

Results

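Stereocilia are the actin-filled projections on the apical surface of hair cells, the sensory cells of the cochlea, and they stand in rows of graded height that sound deflects. Each is a bundle of parallel actin filaments whose length is set at the tip, where motor proteins deliver a complex of scaffold and actin-capping proteins, and whose stiffness depends on actin cross-linkers along the shaft and in the rootlet. Genes of the tip complex, the cross-linkers and the top connectors cause deafness when they are mutated in mice or humans. A set of 10 of these genes is described here, namely the myosin genes *Myo15* (the table's name for *Myo15a*), *Myo3a* and *Myo3b*, the tip genes *Whrn*, *Eps8* and *Eps8l2*, the actin bundling and rootlet genes *Espn*, *Fscn2* and *Triobp*, and *Strc* for stereocilin. They were taken by name from the table of 37432 genes, and all 10 were among the 16215 genes tested, which reached 1 FPKM in 2 or more libraries.

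RNA-seq was performed on the cochlea of mice at P14, postnatal day 14, when hearing in mice has just begun. Mice homozygous for the 35delG mutation of *Gjb2*, the gap junction gene of cochlear supporting cells, were compared with wild-type mice of the same age, and the study describes both as males. Each cochlea was cut into 3 pieces described as equal, the apical, middle and basal turns, which respond to low, intermediate and high frequencies. The 6 groups of genotype and turn held 2 biological repeats each, or 12 libraries. The homozygous mice were made by tetraploid complementation with embryonic stem cells on a background described as almost C57BL/6J, were delivered by cesarean section and were nursed by ICR females, whereas the wild-type mice were purchased, so genotype and origin cannot be told apart. The Y-linked gene *Eif2s3y* had 13.2 to 32.1 scaled FPKM in the 6 wild-type libraries and was listed at 0 in 5 homozygous libraries and at 0.0319 in the other, which goes against the description of the homozygous libraries as male. *Thrb*, a thyroid hormone receptor gene needed for the development of hearing, had 7.35 to 11.9 in the wild-type libraries and 0 to 0.0363 in the homozygous ones. Both genes separate the genotypes in every turn, and their part in the genotype differences below was not tested. The number of mice behind a library is not given in the sources used here, and every p-value below measures the spread between these libraries. That spread is estimated for each gene from all 6 groups together, so a gene has the same standard error in each turn. *Gjb2* itself had 58.6 to 451 scaled FPKM, and these values count both alleles alike, so they do not check the genotype.

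Values are FPKM, which count fragments relative to transcript length and to the library total, divided here by a scaling factor per library. The sequencing depth behind them is unknown, and a value of 0 is therefore given only as listed at 0. Tests are limma's, two-sided, on log2(scaled FPKM + 1), with Benjamini-Hochberg adjustment over all genes tested. Calls needed an adjusted p under 0.01 together with a change over 2-fold. Fold changes on this scale understate the change of genes near or below 1 FPKM, which applies to *Myo3a* and *Myo3b* in most libraries and to *Myo15* and *Strc* in several.

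The promoters of *Myo15*, *Strc* and *Espn* are shown because these were the genes whose genotype difference itself differed between turns. Each is the 250 bases before the RefSeq transcript start in GRCm38.p6, on the gene's own strand, at chr11:60469089-60469338 (plus strand), chr2:121380941-121381190 (minus strand) and chr4:152152390-152152639 (minus strand, the most upstream of 3 starts). Capitals mark the E-box letters CAGCTG or CAGGTG, the kind of site that many basic helix-loop-helix factors recognise, each with its own preferred letters.
Myo15: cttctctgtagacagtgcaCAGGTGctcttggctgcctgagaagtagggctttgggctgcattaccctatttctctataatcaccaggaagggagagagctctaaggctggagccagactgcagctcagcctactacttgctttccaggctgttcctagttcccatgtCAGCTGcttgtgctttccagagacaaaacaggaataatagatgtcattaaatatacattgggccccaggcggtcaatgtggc
Strc: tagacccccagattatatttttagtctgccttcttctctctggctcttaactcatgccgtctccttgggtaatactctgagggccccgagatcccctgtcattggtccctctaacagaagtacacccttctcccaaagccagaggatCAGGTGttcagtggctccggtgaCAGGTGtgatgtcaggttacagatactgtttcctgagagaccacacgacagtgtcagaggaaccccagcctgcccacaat
Espn: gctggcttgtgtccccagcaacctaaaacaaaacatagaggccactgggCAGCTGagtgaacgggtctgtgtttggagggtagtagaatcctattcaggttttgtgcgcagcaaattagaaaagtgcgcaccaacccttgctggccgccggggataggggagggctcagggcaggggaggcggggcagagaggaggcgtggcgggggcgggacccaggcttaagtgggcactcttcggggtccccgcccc
In the *Myo15* window CAGGTG starts at position −231 and CAGCTG at −82, in the *Strc* window CAGGTG starts at −103 and at −80, and in the *Espn* window CAGCTG starts at −201, counted back from the transcript start. RefSeq windows were found for 9 of the 10 genes, 12 windows in all, and *Eps8* had none. On either strand, 3 of the 12 windows hold CAGCTG and 4 hold CAGGTG, against 13% and 17.2% of 32851 mouse promoters of the same length. The GFI1 core letters AAATCA were in 0 of the 12 (12.4% of all promoters), and the X-box letters GTTGCC were in 1, that of *Whrn* (10.4%). No match overlapped another. These matches describe letters only.

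The homozygous basal turn had the lowest values of most of these genes. The library with the lowest value was a homozygous basal one for 8 of the 10 genes and a wild-type middle one for the other two, *Whrn* and *Strc*. The library with the highest value was a wild-type apical one for 5 genes and a wild-type basal one for 3. The range over the libraries was wide for *Myo15* (342-fold) and *Strc* (321-fold), and narrow for *Triobp* (2.79-fold) and *Whrn* (3.47-fold). In the 2 homozygous basal libraries 4 and 5 of the 10 genes were under 1 scaled FPKM, against 1 in each wild-type apical library. Repeats lay close together in the wild-type apical turn, where the median difference between them was 0.08 on the log2 scale, and far apart in the wild-type middle and basal turns, where it was 0.80 in both.

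**Figure D1:**
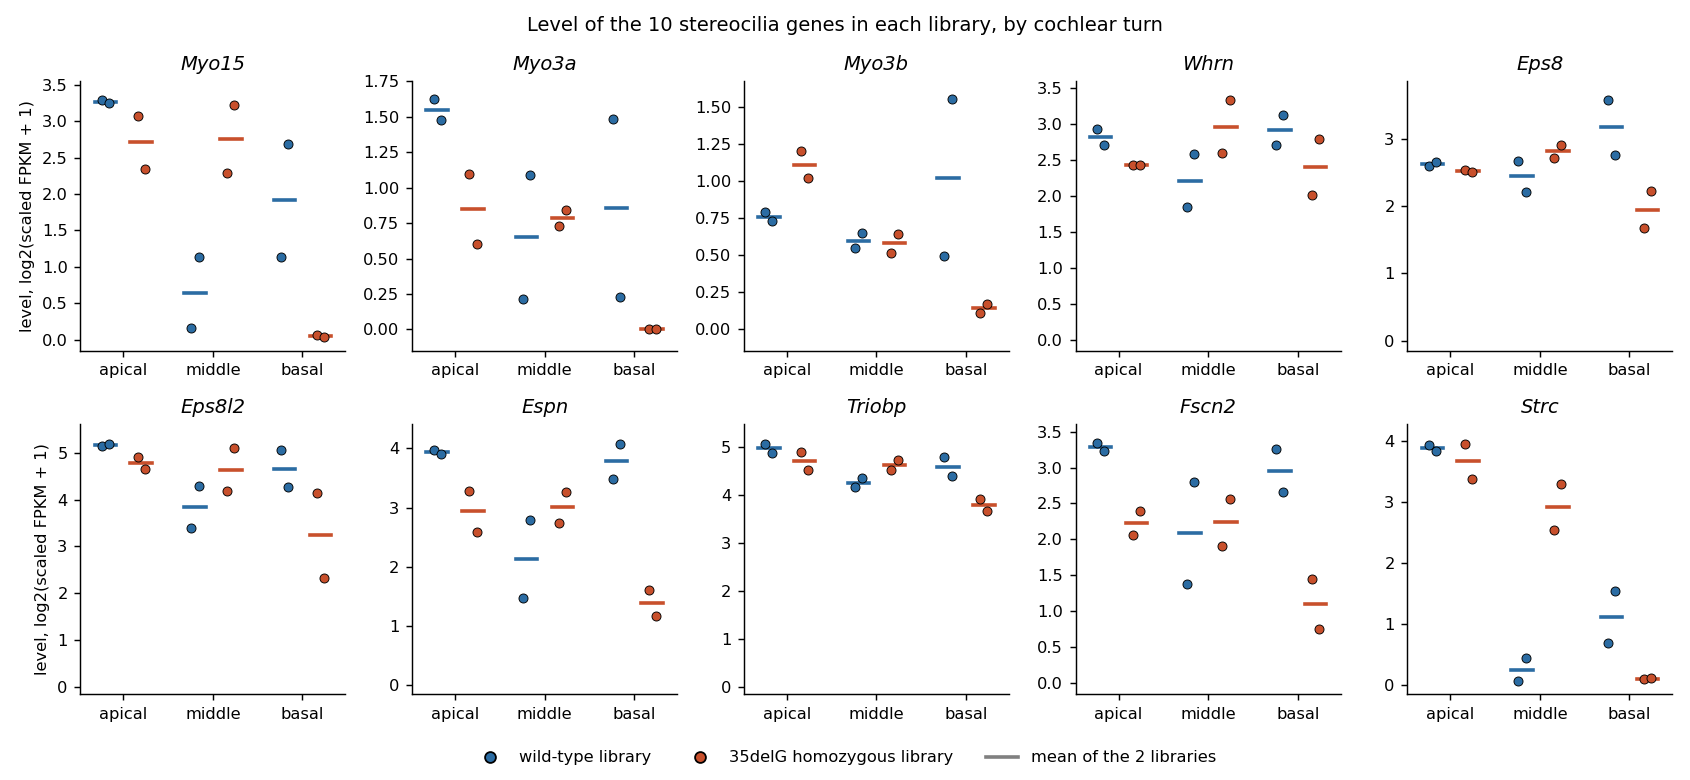
Level of each of the 10 genes in each of the 12 libraries, as log2(scaled FPKM + 1) on the vertical axis, by turn on the horizontal axis, with wild-type libraries in blue, 35delG homozygous libraries in orange and a line at the mean of the 2 libraries of a group. The lowest point is a homozygous basal library for 8 of the genes, the wild-type middle libraries are also low for *Myo15*, *Espn* and *Strc*, and each panel has its own scale.

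MYO15, the motor that carries whirlin and EPS8 to stereocilia tips, is encoded at chr11:60469339-60528369 of GRCm38 on the plus strand. *Myo15* had 8.77 and 8.51 scaled FPKM in the wild-type apical libraries and 7.44 and 4.06 in the homozygous ones. The wild-type libraries had 0.116 and 1.20 in the middle turn, against 3.90 and 8.35 for the homozygous ones, and 1.19 and 5.46 in the basal turn, against 0.0421 and 0.0256. The genotypes therefore did not overlap in any turn, but the homozygous libraries were the lower ones in the apical and basal turns and the higher ones in the middle turn. In the order of group means the homozygous basal turn stood below the wild-type middle turn with no overlap, and the wild-type apical turn stood above all others, while the 4 groups between them overlapped with their neighbours.

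The class III myosins *Myo3a* (chr2:22227503-22618252, plus strand) and *Myo3b* (chr2:70039126-70429198, plus strand) encode motors with a kinase domain that move espins along the actin core, and both genes were low. *Myo3a* had 2.08 and 1.78 scaled FPKM in the wild-type apical turn, 1.14 and 0.517 in the homozygous one, 0.160 and 1.12 against 0.660 and 0.794 in the middle turn, and 1.80 and 0.174 against 0 and 0 in the basal turn. It was thus listed at 0 in both homozygous basal libraries and above 0 in the other 10. *Myo3b* had 0.724 and 0.655 in the wild-type apical turn, 1.30 and 1.02 in the homozygous one, 0.460 and 0.563 against 0.425 and 0.559 in the middle turn, and 0.407 and 1.93 against 0.0780 and 0.123 in the basal turn. It was the only one of the 10 genes whose homozygous apical libraries were both above the wild-type ones.

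*Whrn* (chr4:63414910-63495991, minus strand) encodes whirlin, the scaffold of the tip complex, and *Eps8* (chr6:137477245-137649285, minus strand) an actin-capping and bundling protein of the tallest row. *Whrn* was between 2.60 and 9.02 scaled FPKM in all libraries, with 5.53 and 7.67 against 3.03 and 5.88 in the basal turn, which overlap. *Eps8* had 5.06 and 5.33 against 4.83 and 4.71 in the apical turn, 5.39 and 3.62 against 5.59 and 6.52 in the middle turn, and 10.9 and 5.80 against 2.18 and 3.66 in the basal turn. Its highest and its lowest library were thus both basal ones, a wild-type and a homozygous one. *Eps8l2* (chr7:141338880-141363020, plus strand), the paralogue found at the tips of the shorter rows, had 34.7 and 35.7 against 29.1 and 24.0 in the apical turn, 9.51 and 18.6 against 17.1 and 33.4 in the middle turn, and 32.4 and 18.3 against 16.7 and 4.01 in the basal turn. The repeats of *Eps8l2* differed by more than those of any other of the genes in the homozygous basal turn, by 1.82 on the log2 scale. The gene on the opposite strand within its span, *B230206H07Rik*, had 48.6 and 22.0 there and 3.04 and 1.82 in the wild-type basal turn. Whether the counting used strand is not given in the sources used here, and without it the reads of overlapping genes cannot be told apart. *Myo3a*, *Eps8* and *Triobp* also overlap genes on the opposite strand, so the same limit applies to their values.

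*Espn* (chr4:152120331-152152371, minus strand) encodes espin, which cross-links the parallel actin filaments. It had 14.7 and 14.0 scaled FPKM in the wild-type apical libraries and 8.76 and 5.04 in the homozygous ones, 1.78 and 5.90 against 5.69 and 8.61 in the middle turn, and 10.2 and 16.0 against 2.04 and 1.25 in the basal turn. The wild-type apical and basal libraries were the 4 highest of the 12, and the homozygous basal libraries and 1 wild-type middle library were the 3 lowest. *Fscn2* (chr11:120361534-120368168, plus strand) encodes fascin-2, another cross-linker of the shaft. It had 9.10 and 8.35 against 3.19 and 4.26 in the apical turn, 1.60 and 5.96 against 2.77 and 4.89 in the middle turn, and 8.57 and 5.29 against 1.73 and 0.690 in the basal turn, so that the genotypes were apart in the apical and basal turns and overlapped in the middle one. *Triobp* (chr15:78947724-79005869, plus strand) encodes the bundler of the rootlet, by which a stereocilium is anchored, as well as shorter forms found in many cell types, and a value per gene sums them. It had 32.4 and 28.3 against 28.6 and 21.7 in the apical turn, 16.8 and 19.4 against 21.7 and 25.4 in the middle turn, and 26.3 and 19.9 against 14.1 and 11.6 in the basal turn. The genotypes were apart in the middle turn, where the homozygous libraries were the higher ones, and in the basal turn, where they were the lower ones, and overlapped in the apical turn.

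*Strc* (chr2:121363728-121380940, minus strand) encodes stereocilin, which forms the top connectors between stereocilia of outer hair cells and their attachment to the tectorial membrane. It had 14.3 and 13.3 scaled FPKM in the wild-type apical libraries and 14.6 and 9.37 in the homozygous ones. The wild-type libraries had 0.0455 and 0.352 in the middle turn, against 4.81 and 8.84 for the homozygous ones, and 0.608 and 1.92 in the basal turn, against 0.0671 and 0.0765. *Strc* was therefore lower in every wild-type basal library than in every homozygous middle library, while *Espn* was higher. Its 3' end shares 10 bp with that of *Ckmt1* on the opposite strand, which had 93.6 and 182 in the homozygous basal turn, where *Strc* was low, and 3.37 and 50.2 in the wild-type one.

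In the basal turn, *Espn* fell in the homozygous mice and was the only one of the 10 genes to be called. Its log2 fold change was −2.40 (standard error 0.43, adjusted p = 0.00932 with limma), and 4.29% of all genes tested were called in this comparison, and 1.76% were called lower. The other 9 genes had lower means in the homozygous mice as well, without passing the threshold. *Fscn2* had −1.85 (adjusted p = 0.0259), *Myo15* −1.86 (adjusted p = 0.0449), *Eps8* −1.23 (adjusted p = 0.0228) and *Triobp* −0.79 (adjusted p = 0.0273). *Eps8l2*, *Strc*, *Myo3b*, *Myo3a* and *Whrn* lay between −1.43 and −0.51 with adjusted p from 0.0771 for *Strc* to 0.352 for *Whrn*. For *Myo3a*, listed at 0 in both homozygous libraries, the fitted value depends on the added 1 FPKM and is no bound. The study, using DESeq2 at the same thresholds, reported *Myo3a*, *Myo3b* and *Myo15* among the genes significantly lower in the basal turn. Its method differs from the limma fit on scaled FPKM used here. At an adjusted p under 0.05 and over 2-fold, 4 of the 10 genes were lower, *Eps8*, *Espn*, *Fscn2* and *Myo15*, against 5.27% of all genes. The homozygous libraries were below the wild-type ones with no overlap for 9 of the 10 genes, all but *Whrn*, where 54% of all genes had no overlap and 27.8% had none on the lower side. The median of the 10 log2 fold changes was −1.12, against −0.02 over all genes tested. The call of *Espn* was lost with 10 of the 12 libraries left out in turn and held without either wild-type middle library, with log2 fold changes from −2.70 to −2.10 and adjusted p from 0.00836 to 0.0439. Without the second wild-type basal library *Eps8* was called in its place, with adjusted p = 0.00488.

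**Figure D2:**
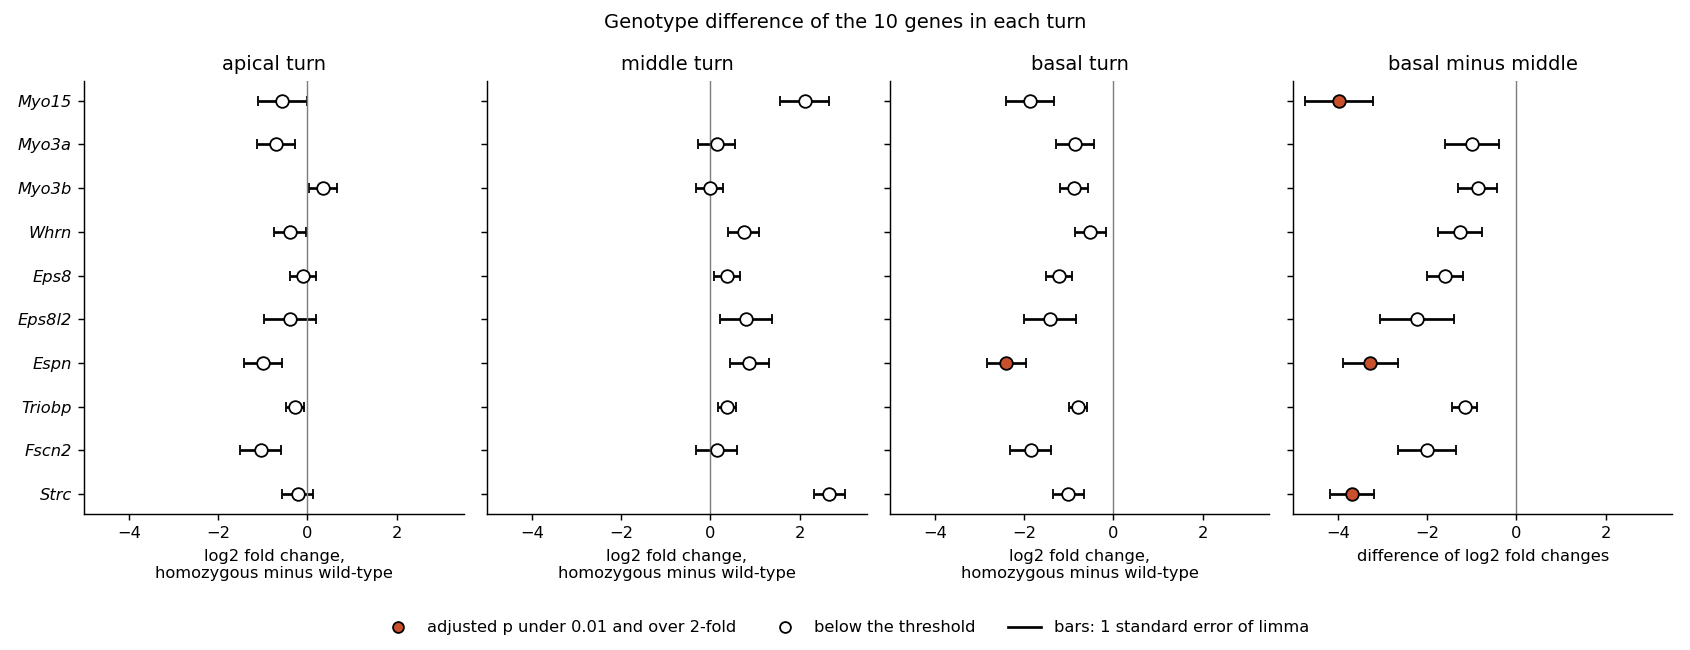
Log2 fold change of the 10 genes, homozygous minus wild-type, in the apical, middle and basal turns, and the difference between the basal and the middle turn, each with 1 standard error from limma as bars and filled points for called genes. *Espn* at −2.40 is the only filled point of the basal panel, *Strc* at 2.67 lies farthest to the right in the middle panel, and all 10 points of the last panel lie below 0.

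Other cell types moved with the basal comparison. Of the 14 hair cell markers outside the 10 genes, 13 were tested, and their summed level was 132 to 137 scaled FPKM in wild-type basal libraries and 12.1 to 29.2 in homozygous ones. All 13 were lower in the homozygous mice and 3 of them fell, *Pou4f3*, *Gfi1* and *Otof*. The defining genes *Pou4f3*, *Loxhd1* and *Slc26a5* were each listed at 0 in 1 homozygous basal library. The 7 tested supporting cell markers of 8 summed to 264 to 315 in the homozygous and to 341 to 378 in the wild-type basal libraries. Their mean log2 level was 3.95 to 4.20 against 3.84 to 3.86. Of the 7, 3 had higher and 4 lower means in the homozygous mice, and *Hey2* was called higher. Among the lower ones, *Fgfr3* had 4.34 and 3.79 against 12.5 and 10.3, and *Lfng* 3.88 and 4.36 against 15.5 and 8.76, neither called. The 9 neuron markers summed to 2595 and 2854 in the homozygous and to 11.8 and 742 in the wild-type basal libraries, the 6 Schwann cell markers to 9086 and 14425 against 1343 and 5478, and the 5 fibrocyte markers to 2548 and 465 against 7006 and 6736. The 4 marginal cell markers of the stria vascularis summed to 202 and 58.5 in the homozygous and to 48.2 and 288 in the wild-type basal libraries. The 4 melanocyte and intermediate cell markers summed to 201 and 35.2 against 34.0 and 525, and the 6 bone cell markers to 398 and 308 against 297 and 2353. Repeats of the same genotype thus differed widely in these lists, except for bone in the homozygous mice. The part of these differences in the values of the 10 genes was not tested. In these bulk pieces fewer hair cells, a smaller share of hair cell tissue and less RNA per hair cell cannot be told apart. By immunofluorescence at P14, the study counted hair cells in the apical, middle and basal turns and found no significant difference between genotypes.

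In the middle turn, none of the 10 genes was called, and 2 of them had an unadjusted p under 0.05, where 0.179% and 25.4% of all genes passed these limits. The homozygous mean was the higher one for 9 of the 10 genes. *Strc* was at 2.67 on the log2 scale (standard error 0.35, adjusted p = 0.0138) and *Myo15* 2.11 (standard error 0.54, adjusted p = 0.0624). The other 8 lay between −0.02 for *Myo3b* and 0.87 for *Espn*, with adjusted p of 0.219 or above. For 5 genes both homozygous libraries were above both wild-type ones, where 59.5% of all genes had no overlap and 31.3% had none on the higher side. *Strc* was called without the first wild-type basal library and without the second, which share its estimate of the spread, and its log2 fold change ranged from 2.28 to 3.04, with adjusted p from 0.00711 to 0.0899, over the libraries left out. The hair cell markers summed to 27.7 and 107 in wild-type middle libraries and to 226 and 411 in homozygous ones. *Ocm* made up much of the homozygous sums, with 159 and 305 against 0.345 and 20.2 in the wild-type libraries. *Otof* (14.2 and 19.3 against 9.42 and 25.2) and *Slc17a8* (7.62 and 11.1 against 4.79 and 24.3) overlapped between the genotypes. Of the 13 markers, 12 had the higher mean in homozygous mice. *Slc26a5*, the motor protein gene of outer hair cells, was called at 2.93 (adjusted p = 0.00889 with limma). The Schwann cell markers were the other way round, with 19441 and 5473 against 754 and 731. The 4 marginal cell markers of the stria vascularis summed to 58.6 to 70.1 in wild-type and to 244 to 343 in homozygous middle libraries, and the 4 melanocyte and intermediate cell markers to 28.1 to 68.3 against 270 to 552, with none of the 8 called by limma and 6 at an unadjusted p under 0.05. Their part in these values was not tested.

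In the apical turn, none of the 10 genes was called either, and 2 of them had an unadjusted p under 0.05, where 0.179% and 16.4% of all genes passed these limits. These tests use the spread of all 6 groups. Between apical repeats the median difference was 0.08 (wild-type) and 0.36 (homozygous) on the log2 scale. It was 0.80 in the wild-type middle and basal turns. The homozygous mean was lower for 9 genes, with *Fscn2* at −1.05 (adjusted p = 0.301), *Espn* at −0.999 (adjusted p = 0.297) and *Myo3a* at −0.70 (adjusted p = 0.453). *Strc* at −0.22 and *Eps8* at −0.10 were the nearest to 0. For 7 genes both homozygous libraries were below both wild-type ones and for *Myo3b* both were above, where 59% of all genes had no overlap. The median was −0.39, against −0.03 over all genes. The hair cell markers summed to 582 and 588 in wild-type libraries and to 302 and 341 in homozygous ones, and all 13 had lower means in the homozygous mice, none of them called by limma and 7 at an unadjusted p under 0.05. The marginal cell markers summed to 54.5 to 56.4 in wild-type and to 211 to 501 in homozygous apical libraries, and the melanocyte and intermediate cell markers to 47.8 to 57.8 against 242 to 660, with none of the 8 called by limma and 6 at an unadjusted p under 0.05. Their part in the apical values was not tested. Averaged over the 3 turns, none of the 10 genes was called, and 3 of them had an unadjusted p under 0.05, where 0.376% and 18.6% of all genes passed these limits. The averages ranged from −0.92 for *Fscn2* and −0.84 for *Espn* to 0.48 for *Strc*.

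The genotype difference itself differed between the basal and the middle turn for 3 of the 10 genes, with 8.91% of all genes called in this comparison and 2.58% called lower. The difference of log2 fold changes was −3.68 for *Strc* (standard error 0.49, adjusted p = 0.00284), −3.27 for *Espn* (standard error 0.61, adjusted p = 0.00717) and −3.98 for *Myo15* (standard error 0.77, adjusted p = 0.00808). *Triobp* had −1.16 (adjusted p = 0.0205) and *Eps8* −1.60 (adjusted p = 0.0254), below the threshold, and all 10 values were negative, with a median of −1.80 against −0.12 over all genes. Neuron markers were crossed between these turns too, with sums of 1338 and 1440 in wild-type middle and 2595 and 2854 in homozygous basal libraries. They summed to 315 and 42.7 in homozygous middle and to 11.8 and 742 in wild-type basal libraries. The part of the tissue content of the pieces in these differences was not tested. With each library left out in turn, *Strc* kept its call in 11 of 12 fits and lost it without the first wild-type middle library (adjusted p = 0.0119). *Myo15* kept its call without either wild-type basal library and lost it in the other 10 fits, and *Espn* kept its call without the second wild-type middle library and lost it in the other 11, with adjusted p up to 0.0307 and 0.0249. Without the second wild-type basal library, *Eps8* was called in place of *Espn* (adjusted p = 0.00521). Between the basal and the apical turn no gene of the 10 was called, with 3 at an unadjusted p under 0.05, and 0.796% and 28.4% of all genes passed these limits. Between the middle and the apical turn *Strc* had 2.89 (adjusted p = 0.189) and *Myo15* 2.67 (adjusted p = 0.557), 4 of the 10 genes had an unadjusted p under 0.05, and 0% and 8.05% of all genes passed these limits.

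Along the wild-type cochlea, *Strc* fell from the apical to the middle turn, by 3.64 on the log2 scale (standard error 0.35, adjusted p = 0.00625), where 0.0863% of all genes were called. *Myo15* was at −2.62 (adjusted p = 0.0807) and *Espn* at −1.81 (adjusted p = 0.111), and all 10 genes had lower means in the middle turn. The middle libraries were below the apical ones with no overlap for 9 of the 10 genes, where 65.4% of all genes had no overlap and 34.6% had none on the lower side. The call of *Strc* was lost with 8 of the 12 libraries left out in turn, namely any apical, wild-type middle or homozygous basal one, with adjusted p up to 0.12. From the apical to the basal turn none was called, *Strc* had −2.78 (adjusted p = 0.019), and 2 genes had an unadjusted p under 0.05, where 0.0863% and 20.3% of all genes passed these limits, while *Espn* had −0.16 (adjusted p = 0.846). From the middle to the basal turn none was called, all 10 had higher means, and 4 had an unadjusted p under 0.05, led by *Espn* at 1.65 (adjusted p = 0.141), where 0% and 15.2% of all genes passed these limits.

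Along the homozygous cochlea, *Strc* fell to the basal turn from both of the other turns. Its log2 fold change was −3.57 from the apical turn (adjusted p = 0.00346, with 4.06% of all genes called) and −2.82 from the middle turn (adjusted p = 0.00411, with 4.66% called). *Myo15* had −2.66 (adjusted p = 0.0134) and −2.71 (adjusted p = 0.0121), and *Espn* −1.56 (adjusted p = 0.0386) and −1.62 (adjusted p = 0.033), all below the threshold. In both comparisons 9 of the 10 genes were lower in the basal turn with no overlap. Of all genes, 59.5% and 61.3% had no overlap, counting both directions, and the share on the lower side alone is not given. The first call of *Strc* was lost with any of the 4 apical libraries or the second homozygous basal one left out (adjusted p up to 0.0432). The second was lost with either wild-type apical, homozygous middle or homozygous basal library left out (adjusted p up to 0.0167). Without the first or without the second wild-type basal library, *Myo15* was called too in both comparisons. From the apical to the middle turn of the homozygous mice no gene was called, none of the 10 had an unadjusted p under 0.05, and 0% and 2.65% of all genes passed these limits. The middle turn of the wild-type and the basal turn of the homozygous cochlea were thus the 2 places where *Myo15*, *Espn* and *Strc* had their lowest means, and the hair cell markers were also lowest there, with sums of 27.7 to 107 and of 12.1 to 29.2.

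Across the 12 libraries, the levels of the genes followed the hair cell list to different degrees. Pearson's r with the mean log2 level of the 13 hair cell markers was 0.95 for *Myo15*, 0.93 for *Triobp*, 0.90 for *Espn* and 0.88 for *Strc*, and lowest for *Myo3b* (0.61), *Whrn* (0.57) and *Eps8* (0.48). These are descriptions over libraries that share groups, tissue pieces and scaling, and carry no p. With the neuron list r was negative for all 10 genes, between −0.82 for *Eps8* and −0.24 for *Myo3b*. When each gene is expressed as its log2 level minus that of the hair cell list in the same library, *Espn* was at −0.40 (wild-type) and −0.47 (homozygous) in the apical turn and at 0.83 and 0.57 in the basal turn, overlapping in both, and at 0.25 and −0.21 in the middle turn, with no overlap. On this relative measure 9 of the 10 genes, all but *Espn*, were higher in the homozygous than in the wild-type basal turn. A gene near 0 has little room to fall on it. In the apical turn 8 of the 10 were higher in the homozygous mice. The list itself was lower in these mice, at 0.702 to 0.931 against 2.83 to 3.08 in the basal turn. In the apical turn it was at 3.20 to 3.62 against 4.34. Any gene that fell less than the list therefore comes out higher. The share over all genes was not computed for this measure, so the counts show nothing particular to the 10 genes. In the middle turn *Strc* and *Myo15* were higher in the homozygous mice relative to the hair cell list, by 1.34 and 0.78, and the other 8 were lower.

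**Figure D3:**
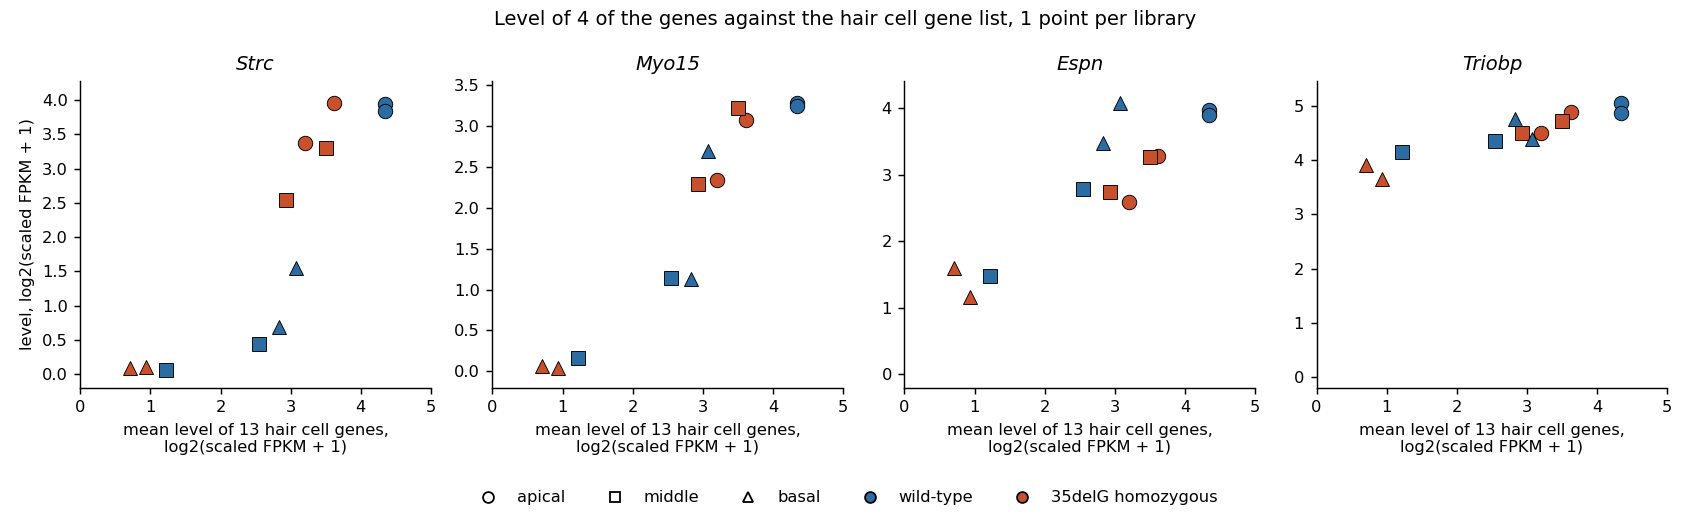
Level of *Strc*, *Myo15*, *Espn* and *Triobp* on the vertical axes against the mean level of 13 hair cell genes on the horizontal axis, both as log2(scaled FPKM + 1), with 1 point per library, colours for genotype and shapes for turn. At hair cell list levels near 3, the 2 wild-type basal libraries lie below the homozygous middle and apical ones for *Strc* and above them for *Espn*.

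The nearest gene to *Strc* among all genes tested was *Slc26a5* (r = 0.99 over 12 libraries), followed by *Cep41* (0.97) and *Otogl* (0.96). *Slc26a5*, which is made in outer hair cells, had 27.1 and 27.5 scaled FPKM in the wild-type apical turn, 0.0255 and 0.876 in the wild-type middle turn and 0.594 and 1.44 in the wild-type basal turn, against 7.78 and 11.7 in the homozygous middle turn. *Otof*, the otoferlin gene, needed for transmitter release by inner hair cells, had 32.2 and 20.7 in the wild-type basal turn against 14.2 and 19.3 in homozygous middle libraries, so the order of these groups was the opposite of that for *Slc26a5* and *Strc* and the same as that for *Espn*. *Ocm*, another outer hair cell gene, had 21.2 and 46.6 in the wild-type basal turn against 159 and 305 in the homozygous middle turn.

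The nearest patterns of *Myo15* were those of *Chrna10* (r = 0.99), the acetylcholine receptor subunit of outer hair cells, *Ttc24* (0.98) and *Loxhd1* (0.97), a hair cell gene of the stereocilia membrane. Those of *Espn* were *Crip3* (0.97), *Ccdc60* (0.97) and *Gfi1* (0.97), a hair cell transcription factor. *Triobp* was nearest to *Crnde* (0.99), *Gramd1c* (0.98) and *Ern1* (0.98), *Fscn2* to *Aftph* (0.97), *Lrrc3c* (0.94) and *Pou2f3* (0.94), and *Eps8l2* to *Sestd1*, *Hipk3* and *Tulp3* (0.96, 0.96 and 0.95). *Myo3a* was nearest to *Rorb*, *Hif3a* and *Nhlrc2* (0.96, 0.96 and 0.95), *Myo3b* to *Tmem255b* (0.95), *Agr3* (0.93) and *Ankrd6* (0.93), and *Eps8* to *Pradc1* (0.93), *Maf1* (0.92) and *Sod3* (0.91). *Whrn* had no gene closer than 0.81, that of *Gm15787*. Each of these genes was picked from 16215 for its likeness. Among the 10 genes themselves, r ranged from 0.20 between *Myo3a* and *Myo3b* to 0.93 between *Myo15* and *Strc*.

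Of 43 other stereocilia genes in 5 lists by role, 41 were tested. In the basal turn 5 of the 41 fell in the homozygous mice and none rose, with 4.29% of all genes called. In the list of links between stereocilia and their anchors, 3 of 9 tested genes fell. *Ush1c*, which encodes harmonin, the scaffold of the upper tip-link end, had 32.4 and 42.5 scaled FPKM in wild-type basal libraries and 0.390 and 0.102 in homozygous ones, a change of −4.94 on the log2 scale (adjusted p = 0.000831). *Otog* and *Otogl*, which encode otogelin and its paralogue and are also made by supporting cells, fell by 4.22 and 2.28 on the log2 scale. The other 6 of that list were not called, and *Myo7a* among them is also in the hair cell list. Of the 8 genes for taper, rootlet and membrane anchors, *Pjvk*, which encodes pejvakin, fell (−1.85, adjusted p = 0.00551), with 1.97 and 3.75 against 0 and 0.0869. Of the 7 actin monomers, bundlers and cross-linkers, *Pls1*, which encodes plastin-1, a shaft cross-linker like espin and fascin-2, fell (−1.43, adjusted p = 0.00577), with 11.1 and 9.90 against 2.86 and 3.68.

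None of the 8 length and tip complex partners and none of the 9 genes of actin assembly and turnover was called in the basal turn. Of the partners, 4 had an unadjusted p under 0.05 on the lower side, where 16% of all genes did, among them *Gpsm2*, which marks the bare zone and the tallest row (−0.85, adjusted p = 0.0197), and *Baiap2l2* of the shorter rows (−1.31, adjusted p = 0.0372). Of the turnover genes, 2 had such a p on the lower and 2 on the higher side, where 16.4% of all genes did. The actin genes *Actb* and *Actg1*, which all cell types use, had −0.33 (adjusted p = 0.428) and −0.51 (adjusted p = 0.162). The medians of the 5 lists were −0.72 for the partners, −0.51 for actin and its bundlers, 0.08 for turnover, −1.10 for taper and anchors and −0.77 for links, beside −1.12 for the 10 genes. *Espnl* and *Xirp2*, actin-binding genes of hair cells, differed widely between the wild-type basal libraries (4.80 and 6.04 in the second, 0.361 and 0.432 in the first).

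**Figure D4:**
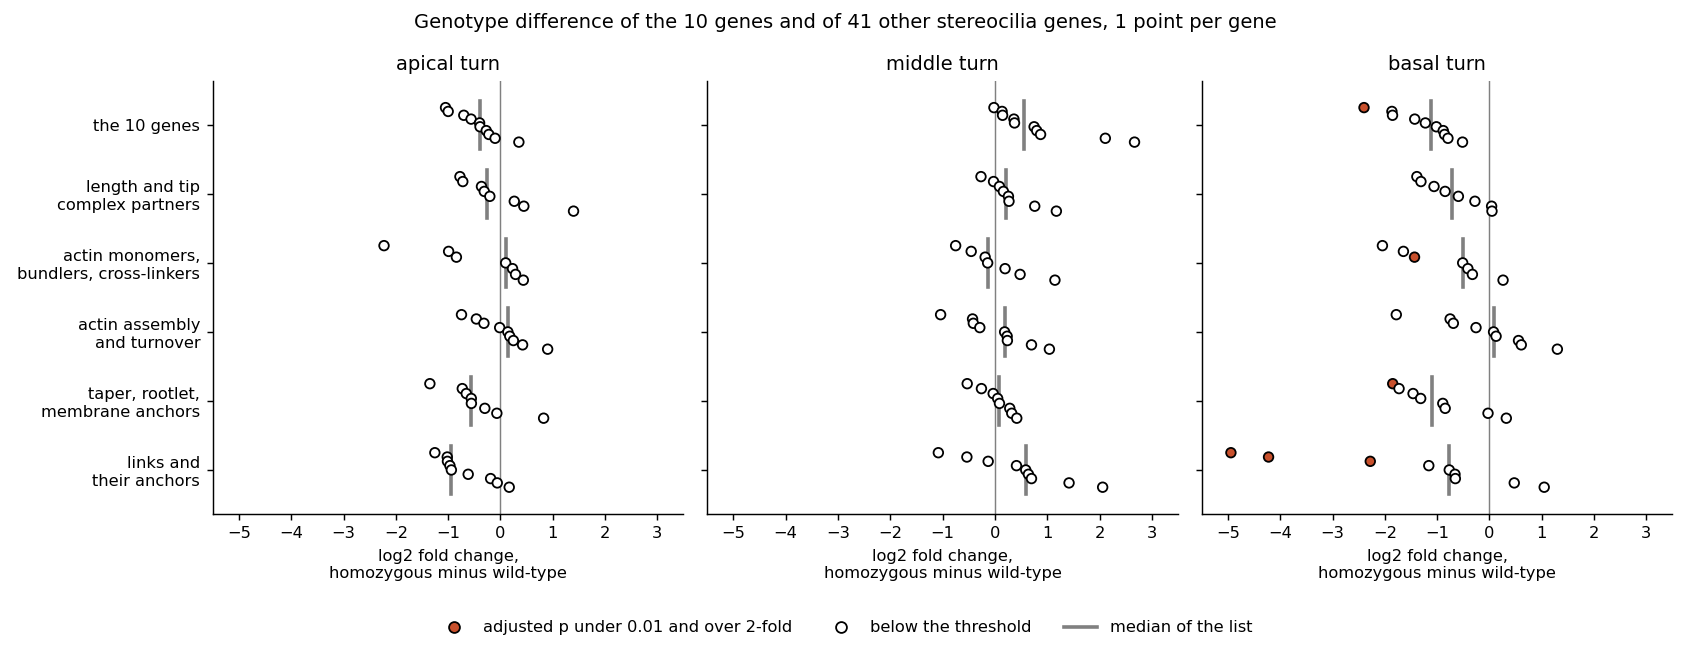
Log2 fold change, homozygous minus wild-type, of the 10 genes and of 41 other stereocilia genes in 5 lists, with 1 point per gene, filled where called, and a grey line at the median of each list, in the apical, middle and basal turns. Called genes appear only in the basal panel, among them *Ush1c* at −4.94, *Otog* at −4.22 and *Espn* at −2.40, and the medians of the turnover list lie between 0.08 and 0.19 in the 3 panels.

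In the apical and middle turns none of the 41 genes was called, and 12 and 9 had an unadjusted p under 0.05, that is 29.3% and 22% of them, where 16.4% and 25.4% of all genes did. The genotype difference between the basal and middle turns was called for 6 of them, all lower, beside 3 of the 10 genes and 8.91% of all genes. These were *Otog* (−5.64), *Ush1c* (−5.58), *Otogl* (−4.34), *Cobl* (−2.82), which encodes the actin nucleator cordon-bleu, *Pjvk* (−2.27) and *Diaph1* (−1.45), a formin.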

How the data were processed

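RNA-seq of the apical, middle and basal turns was analysed in 12 libraries, 2 biological repeats for each of 6 groups, and no library was left out. The authors deposited 1 table of FPKM values per gene for all libraries. The submitters' processing notes name fastp 0.20.0, STAR 2.7.3a, featureCounts 2.0.0, StringTie 2.0 and DESeq2 1.30.0 and the mm10 build, and counts were not used here. The FPKM sum was 316425 to 408162 per library, and the depth and strandedness are not given in the sources used here. FPKM values were scaled by median of ratios over 11552 genes at 1 FPKM or more in every library (factors 0.917 to 1.06) and taken as log2(scaled FPKM + 1).

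Genes at 1 FPKM or more in at least 2 libraries were fitted with limma 3.58.1 in R 4.3.3, with 6 group means, 6 residual degrees of freedom and a variance trend. A total of 13 contrasts were tested two-sided, with Benjamini-Hochberg adjustment over 16215 genes and the study's thresholds, an adjusted p under 0.01 and over 2-fold. The fit was tested on simulated data. Summaries and plots used Python 3.11.15, pandas 2.3.3, numpy 2.4.6 and matplotlib 3.10.9. Promoter sequences are from RefSeq.

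The 10 genes and all gene lists were chosen with earlier results of these data known, and *Myo3a*, *Myo3b* and *Myo15* were named by the study on these libraries. The text may name the 10 genes, the list members, *Gjb2* and, for each of the 10, the 3 genes with the highest Pearson correlation. *Eif2s3y* and *Thrb* were chosen after their values were seen, and *B230206H07Rik* and *Ckmt1* were added because they overlap *Eps8l2* and *Strc*. Genes that overlap *Myo3a*, *Myo3b*, *Eps8* and *Triobp* are not named. Repeat numbers were compared across 15 pairs of groups by the correlation of deviations from the group means, which ran from −0.43 to 0.45 with 4 above 0.1, so the numbers were not taken to pair the samples. A total of 26 alternatives changed the pseudocount, the filter, the scaling, the samples fitted, the library weights, the variance trend, the replicate block, the threshold or left out 1 library. The marginal cell, melanocyte and intermediate cell, bone cell, erythroid and immune cell, and muscle markers, which are also lists of other cell types, had 0 genes called in the basal genotype comparison with limma, with 0, 0, 0, 3 and 1 at an unadjusted p under 0.05. Wild-type basal repeats differed widely in the marginal cell, melanocyte and bone lists, so the absence of calls does not show equal tissue content.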

Additional observations from a re-analysis of the deposited data

Results flagged for a closer look

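The genotype effect differed between the basal and the middle turn for 3 of the 10 genes, by limma's test of the difference itself. The difference of log2 fold changes, basal minus middle, was −3.98 for *Myo15* (standard error 0.77, adjusted p = 0.00808), −3.27 for *Espn* (standard error 0.61, adjusted p = 0.00717) and −3.68 for *Strc* (standard error 0.49, adjusted p = 0.00284). In the homozygous mice *Strc* and *Myo15* had 4.81 and 8.84 and 3.90 and 8.35 scaled FPKM in the middle turn and under 0.1 in both basal libraries. Hair cell marker sums were higher in homozygous than wild-type middle libraries and lower in basal ones, and neuron marker sums the reverse. Their part in these differences was not tested.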

How the results depend on the processing

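Of 766 values of single genes under the alternatives, 673 kept their direction and their side of the threshold, 79 lost a call, 14 gained one and 0 reversed. For the basal genotype comparison, 1 of the 10 genes was called as reported, 0 with a pseudocount of 0.1 or 0.01 FPKM, with no filter, with only the libraries of the contrast, with library weights, with no trend and with the replicate block as a fixed term, and 4 at an adjusted p under 0.05. Over all genes this comparison had 696 calls as reported, 89 with no filter, 22 with library weights and 0 with only the libraries of the contrast, where 4 libraries leave 2 residual degrees of freedom. For the difference between the basal and middle turns the count was 3 as reported, 0 with no filter and with only the libraries of the contrast, 1 with library weights and with the replicate block, and 5 at an adjusted p under 0.05. In the middle turn it was 0 as reported and 1 with library weights and at an adjusted p under 0.05, in each case *Strc*. From the wild-type apical to middle turn it was 1 as reported and 0 with either smaller pseudocount, with no filter, with a filter of 5 FPKM, with only the libraries of the contrast and with the replicate block. From the wild-type apical to basal turn it was 0 as reported and 1 at an adjusted p under 0.05. From the homozygous apical to basal turn it was 1 as reported, 2 with either smaller pseudocount, 0 with no filter and with only the libraries of the contrast, and 3 at an adjusted p under 0.05. From the homozygous middle to basal turn it was 1 as reported, 2 with either smaller pseudocount and with an equal sum, 0 with no filter and with only the libraries of the contrast, and 3 at an adjusted p under 0.05. With 1 library left out the counts ran from 0 to 1 in the middle and basal genotype comparisons and from the wild-type apical to middle turn, from 0 to 3 for the difference between basal and middle turns, and from 0 to 2 in both homozygous comparisons with the basal turn, the lone library of its group being assumed to vary like the others. The cause of these changes was not tested. The repeats share only a number: with the replicate block as a fixed term the basal calls over all genes went from 696 to 177 and *Espn* to an adjusted p of 0.016, while with a random block by genotype and repeat there were 667 and *Espn* had 0.00976. Scaling to an equal sum moved the median of all genes by up to −0.26, from the wild-type apical to middle turn. The depth is unknown, so no limit can be set for values listed at 0, and 2 libraries per group limit every comparison.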
